A study of Mus musculus with 24 samples.

Results

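The collagen genes of the mouse spleen were followed 24 hours after total body irradiation in BALB.K and B10.BR mice. Members were all array probes whose gene name has the form of a collagen chain, Col, a type number, the letter a and a chain number. This gave 61 of the 55681 non-control probes and 41 of the 36413 gene names on the array. BALB.K mice were left at rest (0 cGy) or given 300, 400 or 800 cGy, and B10.BR mice were left at rest or given 300, 500 or 900 cGy. The design text describes 800 cGy for BALB.K and 900 cGy for B10.BR as the myeloablative doses. Each of the 8 groups had 3 one-colour Agilent arrays, and the RNA of 1 array came from homogenised splenocytes of 3 mice, combined into a pool. The age and sex of the mice are not given in the sources used here, and the doses between the lowest and the highest differ between the strains.

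Collagens are trimers of alpha chains that share a triple helix, whose sequence repeats glycine at a fixed step. Fibril-forming collagens give tissue its tensile strength, network-forming collagens build basement membranes, and other types decorate fibrils, form beaded filaments or span the plasma membrane. In the spleen, the capsule, the trabeculae and the reticular fibres hold most of the collagen, and type III and type I chains are the main components of reticular fibres. Fibroblasts, fibroblastic reticular cells, smooth muscle cells and endothelial cells make most of it, while lymphocytes make little.

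The repeat can be read in the probes themselves, and the sequences are shown because they mark the feature that defines the family. Of the 61 collagen probes, 6 (9.84%) held at least 3 glycine codons (GGN) spaced 9 bases apart, against 517 of the 55620 other probes (0.93%). Probes of 60 bases from 5 of the genes are printed 5′ to 3′ with the longest run of in-step glycine codons in capitals. The probes of Col13a1, Col15a1 and Col25a1 are those used below for the levels of these genes.
Col13a1, mm9 chr10:61330216-61330585, minus strand: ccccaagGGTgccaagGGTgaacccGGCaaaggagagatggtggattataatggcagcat
Col14a1, mm9 chr15:55347733-55347792, plus strand: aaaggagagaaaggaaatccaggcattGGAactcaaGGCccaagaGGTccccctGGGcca
Col15a1, mm9 chr4:47283786-47283845, plus strand: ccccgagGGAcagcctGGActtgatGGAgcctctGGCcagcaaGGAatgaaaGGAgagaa
Col16a1, mm9 chr4:129756457-129756516, plus strand: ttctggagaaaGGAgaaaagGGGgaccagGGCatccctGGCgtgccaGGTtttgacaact
Col25a1, mm9 chr3:130270497-130270556, plus strand: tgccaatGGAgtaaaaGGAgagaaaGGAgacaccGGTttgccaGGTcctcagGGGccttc
The longest run holds 6 such codons in the Col25a1 and Col15a1 probes, 5 in the Col16a1 probe, 4 in the Col14a1 probe and 3 in the Col13a1 probe. Glycine codons outside that run are left in lower case, among them a shorter run before the capitals in the Col14a1 probe. Of the 5 probes, that of Col13a1 is the one whose genomic span is longer than its 60 bases.

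A probe entered the tests when some group had it marked by the scanner as well above background on each of its 3 arrays. That held for 48 of the 61 probes, from 36 of the 41 genes. The probes of Col2a1, Col19a1 and Col28a1 and the dimmer tested probe of Col4a4 entered through irradiated groups alone. So did the Col16a1 probe printed above, the dimmest tested probe of Col23a1 and the dimmer tested probe of Col9a1. The filter thus favours a rise from 0 cGy for these probes. The dimmer Col4a6 probe entered through B10.BR groups alone, which favours a higher level in that strain. A gene with several such probes (10 genes) was followed by its brightest one, and 29 of the 36 genes were above background on all 24 arrays by that probe. The remaining 5 genes were not tested: Col10a1, whose better probe was above background on 1 array, Col9a3 on 3, Col4a3 on 4, Col24a1 on 5 and Col11a1 on 6. Col6a3, Col6a5 and Col26a1 had no probe under those names. Levels below are log2 of the processed signal minus the 75th percentile of the same array, so that 0 is the brightness of the array's upper quartile. Levels of different probes cannot be set against each other.

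Most of the collagen genes tested were higher after irradiation in both strains and at every dose. In BALB.K, 21 of the 36 genes rose and 4 fell at 300 cGy, 24 rose and 4 fell at 400 cGy, and 26 rose and 3 fell at 800 cGy. In B10.BR, 22 rose and 1 fell at 300 cGy, 27 rose and 2 fell at 500 cGy, and 26 rose and 2 fell at 900 cGy. A change was called at an adjusted p under 0.05, from limma over all 42319 probes tested. Of those probes, 42.4% were called in either direction in BALB.K at 300 cGy, 48.2% at 400 cGy and 55.8% at 800 cGy, and 38.4% in B10.BR at 300 cGy, 45.2% at 500 cGy and 51% at 900 cGy. Only part of these calls were rises: 19.1%, 24.1% and 28.6% of all probes rose in BALB.K at 300, 400 and 800 cGy, and 17.1%, 20.6% and 24.4% in B10.BR at 300, 500 and 900 cGy. The median collagen difference was 0.80, 0.81 and 1.08 on the log2 scale in BALB.K, in order of dose, beside -0.11, 0.01 and 0.10 for all probes. In B10.BR it was 0.58, 0.98 and 1.08, beside -0.07, -0.07 and 0.01. Among the 29 genes above background on all arrays, 23 rose and 2 fell in BALB.K at 800 cGy, and 24 rose and 0 fell in B10.BR at 900 cGy by limma. Of all probes above background on all arrays, 61.7% were called in BALB.K at 800 cGy (30.2% higher and 31.6% lower) and 57% in B10.BR at 900 cGy (25.7% higher and 31.3% lower). The brightness of a probe in whole spleen is a share of the RNA, so that more collagen RNA per cell and a larger share of collagen-making cells cannot be told apart.

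**Figure D1:**
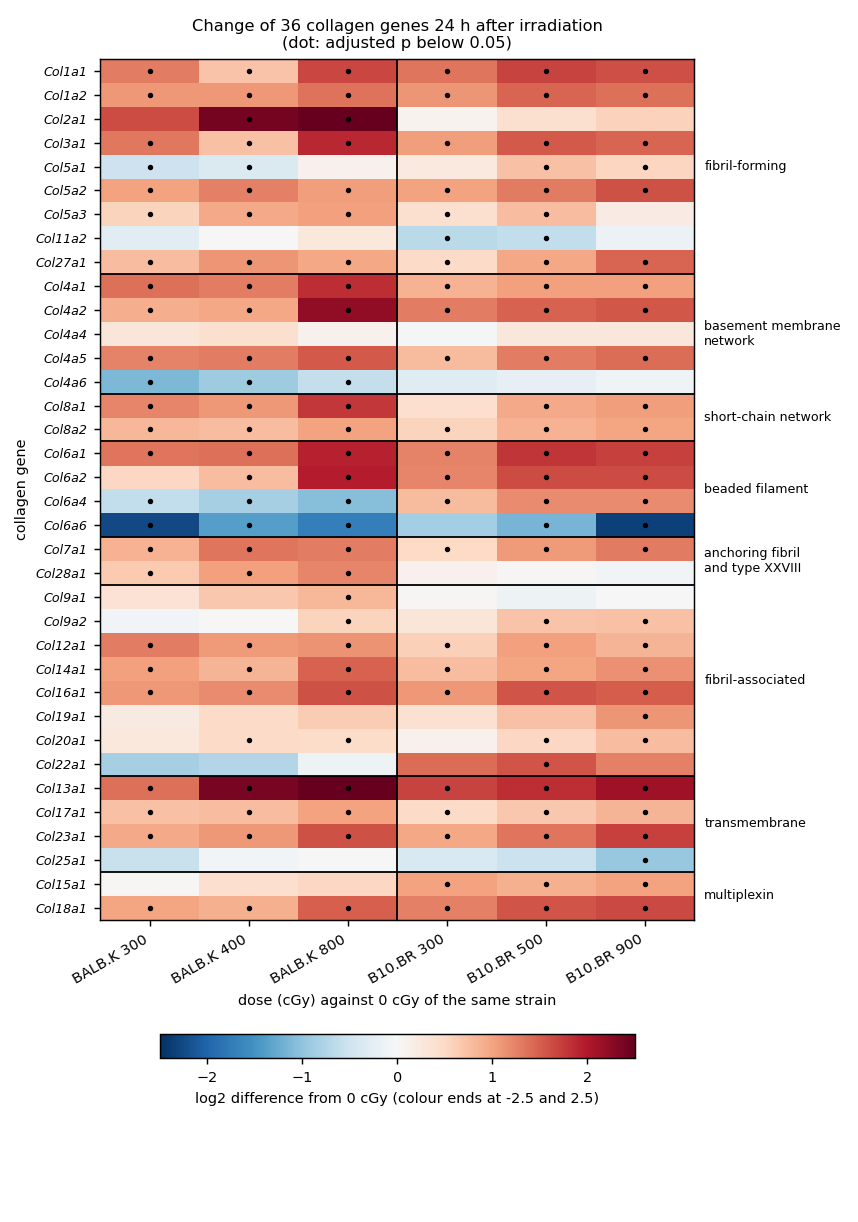
Difference from 0 cGy (log2, colour) of the 36 collagen genes tested (rows, ordered by structural class) in the 6 comparisons of a dose with 0 cGy (columns, BALB.K then B10.BR), with a dot where the adjusted p was under 0.05. Most rows are in the colour of a rise across all 6 columns, Col6a4 changes colour between the strains with a dot in each, and Col22a1 changes colour with a dot in B10.BR at 500 cGy alone.

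The arrays lay on 3 slides of 8. All BALB.K arrays at 0 cGy lay on slide 2, and those at 400 and 800 cGy on slide 3. All B10.BR arrays at 0 and 300 cGy lay on slide 1, and those at 900 cGy on slide 2. Only BALB.K at 300 cGy and B10.BR at 500 cGy were split between slides. The slide was added as a block and also taken alone where it held both groups. The shares of all probes given in this text belong to the fit without such changes. Recomputed counts here and below have no such share beside them. For groups that share no slide, the block separates dose from slide only through the split groups. With the block, 22 collagen genes rose and 4 fell in BALB.K at 300 cGy, 21 rose and 2 fell at 400 cGy, and 24 rose and 2 fell at 800 cGy, and in B10.BR 22 rose and 1 fell at 300 cGy, 26 rose and 1 fell at 500 cGy, and 24 rose and 0 fell at 900 cGy by limma. Within 1 slide, 23 genes rose and 2 fell in B10.BR at 300 cGy, 27 rose and 1 fell at 500 cGy (2 of the 3 arrays), and in BALB.K 19 rose and 2 fell at 300 cGy. That slide held 1 array of BALB.K at 300 cGy, which was assumed to vary like the other arrays on it. All 12 B10.BR arrays and 6 of the 12 BALB.K arrays, namely replicate 1 at 0, 300 and 400 cGy and all 3 arrays at 800 cGy, carried Y-linked signal. With that signal as a covariate, 25 collagen genes rose and 3 fell in BALB.K at 800 cGy. The 75th percentile ranged from 700.1 to 1030 intensity units over the arrays, and 0 spots were saturated. Scaled on the spike-in probes instead, the median of all probes in BALB.K at 800 cGy moved from 0.10 to 0.46, and that of the collagen genes from 1.08 to 1.44. In B10.BR at 900 cGy the same scaling moved all probes from 0.01 to 0.39 and the collagen genes from 1.08 to 1.46, with 29 genes higher and 2 lower in each of these comparisons.

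Of the 9 fibril-forming collagens tested, 7 rose and 0 fell in BALB.K at 800 cGy, and 6 rose and 0 fell in B10.BR at 900 cGy (limma). The chains of type I and type III rose at every dose in both strains. Col1a1 and Col1a2 encode the chains of type I collagen, the main fibril of most connective tissue, and Col3a1 that of type III, the fibril of reticular fibres. The Col1a1 probe (mm9 chr11:94813115-94813174, plus strand) stood in BALB.K at 3.14, 3.64 and 3.21 at 0 cGy, 4.70, 4.52 and 4.60 at 300 cGy, 4.21, 4.20 and 3.72 at 400 cGy and 5.06, 5.03 and 4.91 at 800 cGy. The B10.BR arrays read 3.96, 3.82 and 3.56 at 0 cGy, 5.27, 5.05 and 5.02 at 300 cGy, 5.52, 5.55 and 5.32 at 500 cGy and 5.40, 5.36 and 5.41 at 900 cGy. Every irradiated array was above every 0 cGy array of its strain. Col1a1 rose by 1.27 ± 0.14 (SE) at 300 cGy, 0.71 ± 0.14 at 400 cGy and 1.67 ± 0.14 at 800 cGy in BALB.K (limma, adjusted p = 9.1e-07, 0.00045 and 1.25e-08). In B10.BR it rose by 1.33 ± 0.14 at 300 cGy, 1.68 ± 0.14 at 500 cGy and 1.61 ± 0.14 at 900 cGy (adjusted p = 8.83e-07, 2.29e-08 and 2.33e-08).

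Col1a2 (mm9 chr6:4490619-4490678, plus strand) stood in BALB.K at 4.95, 5.19 and 4.83 at 0 cGy, 6.21, 6.11 and 5.90 at 300 cGy, 6.12, 6.15 and 5.97 at 400 cGy and 6.38, 6.44 and 6.21 at 800 cGy. In B10.BR its levels were 4.83, 4.76 and 4.70 at 0 cGy, 5.99, 5.81 and 5.81 at 300 cGy, 6.22, 6.26 and 6.15 at 500 cGy and 6.0, 6.34 and 6.07 at 900 cGy. The irradiated arrays again lay above the 0 cGy arrays without overlap, and the differences were 1.08, 1.09 and 1.35 in BALB.K and 1.11, 1.45 and 1.37 in B10.BR in order of dose (SE 0.11, largest adjusted p = 4.49e-07).

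For Col3a1 (mm9 chr1:45405589-45405648, plus strand) the BALB.K arrays gave 2.87, 3.42 and 3.52 at 0 cGy, 4.46, 4.75 and 4.56 at 300 cGy, 3.96, 4.13 and 3.93 at 400 cGy and 5.15, 5.18 and 5.13 at 800 cGy. The B10.BR arrays gave 3.81, 3.77 and 3.80 at 0 cGy, 4.95, 4.76 and 4.79 at 300 cGy, 5.33, 5.44 and 5.23 at 500 cGy and 5.27, 5.32 and 5.13 at 900 cGy. No irradiated array reached down to the 0 cGy level. Col3a1 rose by 1.32 ± 0.13, 0.74 ± 0.13 and 1.88 ± 0.13 in BALB.K (adjusted p = 1.53e-07, 0.000101 and 6.2e-10) and by 1.04 ± 0.13, 1.54 ± 0.13 and 1.45 ± 0.13 in B10.BR (adjusted p = 4.39e-06, 1.88e-08 and 2.37e-08). The rises of Col1a1 and Col3a1 in BALB.K at 400 cGy were smaller than at 300 and 800 cGy, whereas that of Col1a2 was not; this order was not tested. With the slide as a block the Col3a1 difference at 400 cGy was 0.55 and was not called.

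**Figure D2:**
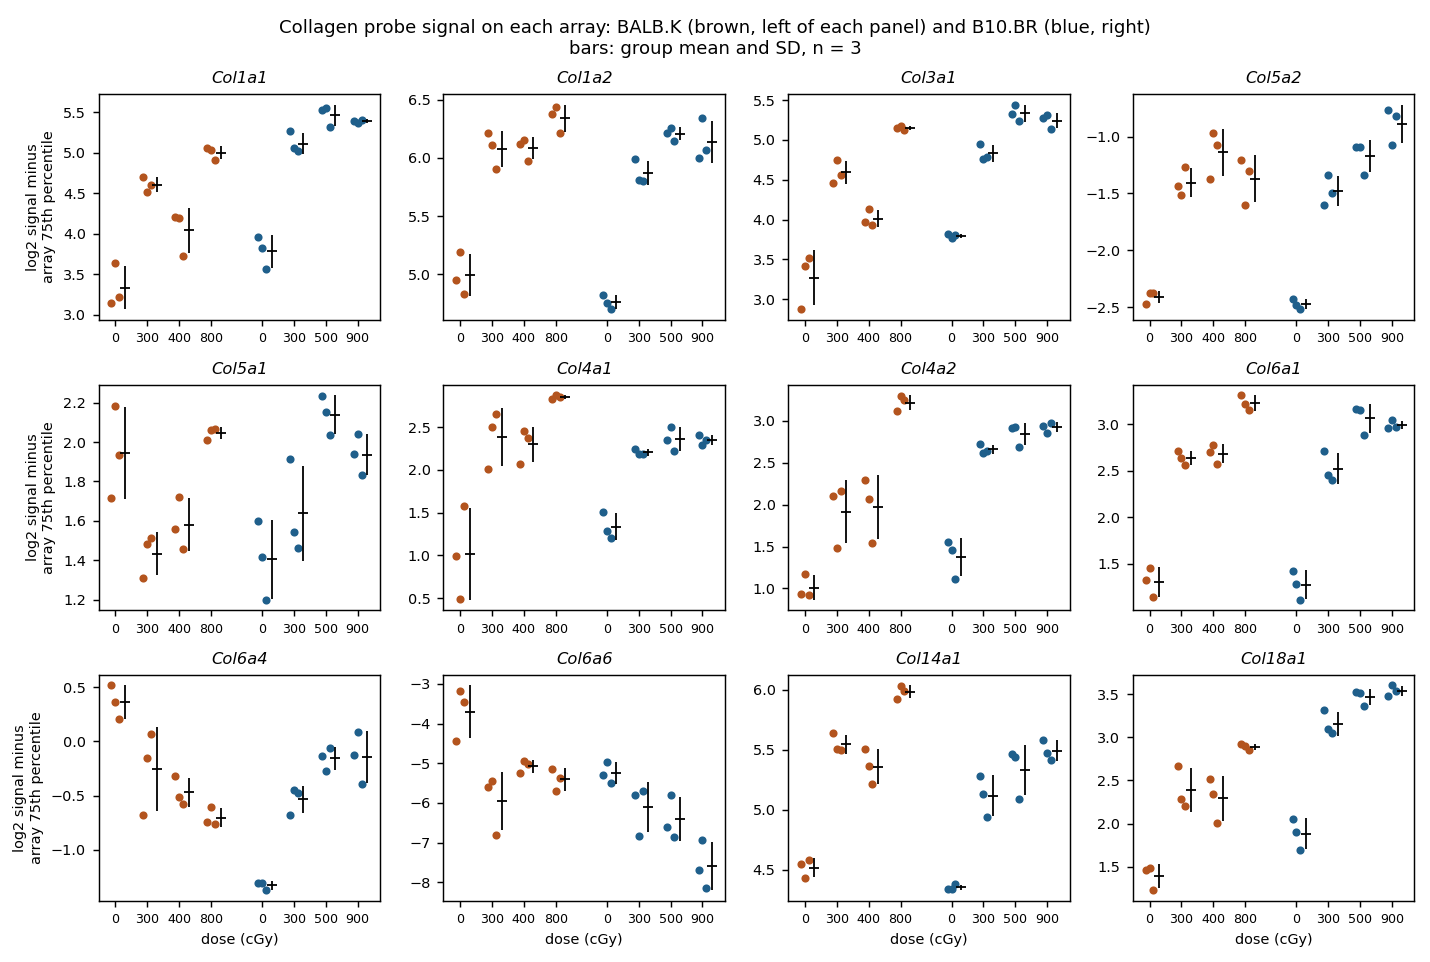
Level of selected collagen genes (vertical axis, log2 of signal minus the array's 75th percentile) on each of the 24 arrays, by strain and dose in cGy (horizontal axis). Points are arrays, brown for BALB.K and blue for B10.BR, and bars are the mean and SD of 3 arrays; Col1a1, Col1a2 and Col3a1 lie above their 0 cGy points on every irradiated array, and Col6a4 moves down in BALB.K and up in B10.BR.

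The type V chains, which are built into type I fibrils and limit their width, did not move together. Col5a2 stood in BALB.K at -2.47, -2.37 and -2.38 at 0 cGy, -1.43, -1.52 and -1.27 at 300 cGy, -1.37, -0.97 and -1.08 at 400 cGy and -1.21, -1.60 and -1.30 at 800 cGy. B10.BR levels of this probe were -2.43, -2.48 and -2.52 at 0 cGy, -1.60, -1.34 and -1.49 at 300 cGy, -1.09, -1.09 and -1.34 at 500 cGy and -0.76, -1.08 and -0.82 at 900 cGy. Its irradiated arrays were all above the 0 cGy arrays, with rises of 1.0, 1.27 and 1.04 in BALB.K and 1.0, 1.30 and 1.59 in B10.BR (SE 0.12, largest adjusted p = 4.77e-06). Col5a1 instead stood in BALB.K at 1.72, 2.18 and 1.93 at 0 cGy, 1.31, 1.48 and 1.51 at 300 cGy, 1.56, 1.72 and 1.46 at 400 cGy and 2.01, 2.06 and 2.07 at 800 cGy. Its B10.BR levels were 1.60, 1.42 and 1.20 at 0 cGy, 1.91, 1.54 and 1.46 at 300 cGy, 2.23, 2.15 and 2.03 at 500 cGy and 1.94, 2.04 and 1.83 at 900 cGy. In BALB.K it was lower at 300 cGy than at 0 cGy on every array, and at 800 cGy it lay within the range of the 0 cGy arrays. Col5a1 fell by 0.51 ± 0.13 in BALB.K at 300 cGy (adjusted p = 0.00464), rose by 0.73 ± 0.13 in B10.BR at 500 cGy (adjusted p = 0.000166) and rose by 0.53 ± 0.13 at 900 cGy (adjusted p = 0.00253). The BALB.K 300 cGy fall was not called with median scaling (-0.34). At 400 cGy its difference of -0.37 ± 0.13 was called (adjusted p = 0.031), but no longer without replicate 2 or 3 at 0 cGy or without replicate 1 or 3 at 400 cGy, when it was -0.25 to -0.37. 

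Col5a3, the remaining type V chain, stood in BALB.K at -2.10, -1.81 and -1.97 at 0 cGy, -1.33, -1.54 and -1.35 at 300 cGy, -1.09, -0.66 and -1.26 at 400 cGy and -0.86, -1.16 and -0.81 at 800 cGy. Its values in B10.BR were -1.33, -1.19 and -1.19 at 0 cGy, -0.77, -0.81 and -0.92 at 300 cGy, -0.5, -0.32 and -0.57 at 500 cGy and -0.89, -0.91 and -1.29 at 900 cGy. It was higher on every irradiated BALB.K array, by 0.55, 0.95 and 1.02 (SE 0.15), and in B10.BR it was higher at 500 cGy by 0.78 ± 0.15, while the 900 cGy arrays, 0.21 ± 0.15 above 0 cGy, did not pass (adjusted p = 0.257). The B10.BR 300 cGy rise of 0.40 ± 0.15 (adjusted p = 0.0349) was lost without any 1 of the 0 cGy arrays or without replicate 1 or 2 at 300 cGy, at 0.36 to 0.43. The BALB.K 300 cGy rise was lost without the BALB.K replicate 1 arrays at 0, 300 and 400 cGy, at 0.44.

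Col27a1, a fibril-forming chain of cartilage and epithelia, rose by 0.78, 1.11 and 0.97 in BALB.K and by 0.47, 0.98 and 1.45 in B10.BR (SE 0.11, largest adjusted p = 0.00149). Its B10.BR levels were -0.60, -0.69 and -0.64 at 0 cGy, -0.33, -0.02 and -0.16 at 300 cGy, 0.32, 0.47 and 0.21 at 500 cGy and 0.86, 0.77 and 0.79 at 900 cGy. The doses of B10.BR were in ascending order without overlap between neighbouring groups. Col2a1, the type II chain of cartilage, was above background on no BALB.K array at 0 cGy and on all 9 irradiated ones. Its probe entered the tests only through those irradiated groups, so that the filter favours its rises from 0 cGy. Its BALB.K levels were -7.35, -5.99 and -6.47 at 0 cGy, -4.20, -4.96 and -5.75 at 300 cGy, -4.35, -3.59 and -4.70 at 400 cGy and -2.93, -4.40 and -2.19 at 800 cGy. It was at least 3.51-fold higher at 400 cGy (adjusted p = 0.0063) and at least 7.22-fold higher at 800 cGy (adjusted p = 0.000239), where the bound sets the dim group at the lowest signal that counted as above background. The 400 cGy call was lost without the BALB.K replicate 1 arrays (2.08 on the log2 scale). In B10.BR, where Col2a1 was above background on 1 to 2 arrays of a group, no dose passed. Col11a2, a minor chain of cartilage fibrils, stood in B10.BR at -1.84, -1.68 and -1.73 at 0 cGy, -2.5, -2.32 and -2.43 at 300 cGy, -2.37, -2.46 and -2.29 at 500 cGy and -2.05, -1.78 and -1.83 at 900 cGy. It was lower on all arrays at 300 and 500 cGy than at 0 cGy, by 0.66 ± 0.13 and 0.62 ± 0.13 (adjusted p = 0.000596 and 0.000798). At 900 cGy (-0.14 ± 0.13) and at the BALB.K doses (-0.28, 0.01 and 0.26) it did not pass, and the B10.BR falls were not called when arrays were scaled on the spike-in probes (-0.32 and -0.31).

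The basement membrane collagens are type IV chains, which form the sheet under endothelium and around splenic smooth muscle and the ring fibres of the sinuses. Of the 5 tested, 3 rose at every dose in both strains, and 1 fell at every BALB.K dose. Their genes lie in head-to-head pairs. By RefSeq (GRCm38.p6), the annotated transcripts of Col4a1 and Col4a2 overlap at their starts on chromosome 8, at 11312826 on the minus strand and 11312805 on the plus strand. The 30 bases around these starts are printed because both genes are read outward from them, with the 22 bases that belong to both transcripts in capitals.
Col4a1 and Col4a2 starts, GRCm38.p6 chr8:11312801-11312830, plus strand: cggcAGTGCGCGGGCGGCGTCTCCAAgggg
The starts of Col4a6 and Col4a5 on chromosome X face away from each other with 1342 bases between them.

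Col4a1 (mm9 chr8:11199009-11199068, minus strand) stood in BALB.K at 0.99, 0.49 and 1.57 at 0 cGy, 2.01, 2.5 and 2.66 at 300 cGy, 2.07, 2.46 and 2.37 at 400 cGy and 2.83, 2.88 and 2.86 at 800 cGy. On the B10.BR arrays it gave 1.51, 1.29 and 1.20 at 0 cGy, 2.25, 2.18 and 2.18 at 300 cGy, 2.35, 2.51 and 2.23 at 500 cGy and 2.41, 2.29 and 2.35 at 900 cGy. Its irradiated arrays were above the 0 cGy arrays in both strains. Col4a1 rose by 1.37, 1.28 and 1.84 in BALB.K and by 0.87, 1.03 and 1.02 in B10.BR (SE 0.20, largest adjusted p = 0.00177). The slide block brought the BALB.K 400 cGy difference to 0.71, which was not called.

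Col4a2 (mm9 chr8:11448840-11448899, plus strand), the partner chain, stood in BALB.K at 0.93, 1.18 and 0.92 at 0 cGy, 2.10, 1.48 and 2.17 at 300 cGy, 2.30, 2.07 and 1.54 at 400 cGy and 3.12, 3.29 and 3.24 at 800 cGy. Its B10.BR levels were 1.55, 1.45 and 1.12 at 0 cGy, 2.72, 2.62 and 2.64 at 300 cGy, 2.91, 2.93 and 2.69 at 500 cGy and 2.94, 2.86 and 2.97 at 900 cGy. The 800 cGy arrays of BALB.K were above all other BALB.K arrays, and no irradiated array of either strain overlapped its 0 cGy group. The rises were 0.91, 0.96 and 2.21 in BALB.K and 1.28, 1.47 and 1.55 in B10.BR (SE 0.18, largest adjusted p = 0.000433).

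Col4a5, on the X chromosome, stood in BALB.K at -2.49, -2.09 and -1.94 at 0 cGy, -1.06, -0.85 and -0.86 at 300 cGy, -0.93, -0.93 and -0.79 at 400 cGy and -0.53, -0.67 and -0.72 at 800 cGy. In B10.BR it stood at -1.07, -1.07 and -0.90 at 0 cGy, -0.14, -0.09 and -0.45 at 300 cGy, 0.17, 0.46 and 0.16 at 500 cGy and 0.62, 0.45 and 0.08 at 900 cGy. It was higher on every irradiated array, by 1.25, 1.29 and 1.53 in BALB.K and 0.79, 1.28 and 1.40 in B10.BR (SE 0.15, largest adjusted p = 0.000331).

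Col4a6, its head-to-head neighbour, had 2 tested probes that moved in opposite directions in BALB.K. The brighter probe lies at position 5102 of the transcript (mm9 chrX:137601433-137601491) and the dimmer one at position 6544 (mm9 chrX:137599990-137600049), both on the minus strand. The brighter probe stood in BALB.K at -0.80, -0.32 and -0.54 at 0 cGy, -1.88, -1.49 and -1.64 at 300 cGy, -1.23, -1.41 and -1.69 at 400 cGy and -1.11, -1.24 and -1.12 at 800 cGy. The B10.BR arrays read -1.82, -1.85 and -1.76 at 0 cGy, -2.01, -2.12 and -2.21 at 300 cGy, -1.97, -2.19 and -1.85 at 500 cGy and -1.74, -1.97 and -2.01 at 900 cGy. It was lower on all irradiated BALB.K arrays, by 1.12 ± 0.14, 0.89 ± 0.14 and 0.60 ± 0.14 in order of dose (adjusted p = 2.88e-06, 2.86e-05 and 0.00103), and in B10.BR its differences of -0.31, -0.20 and -0.10 did not pass. With the spike-in scaling its BALB.K 800 cGy difference was -0.24 and was not called.

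The dimmer Col4a6 probe was above background on 0 of 3 arrays in BALB.K at 0 cGy, on 1 of 3 at each BALB.K dose and on all 12 B10.BR arrays. B10.BR levels of this probe were -3.32, -3.24 and -3.53 at 0 cGy, -2.36, -2.40 and -3.0 at 300 cGy, -1.73, -1.76 and -2.03 at 500 cGy and -1.72, -1.91 and -1.89 at 900 cGy. It rose there by 1.52 ± 0.41 at 500 cGy (adjusted p = 0.00461) and 1.52 ± 0.41 at 900 cGy (adjusted p = 0.00392), and the 300 cGy difference of 0.77 ± 0.41 did not pass. In BALB.K it was at least 1.03-fold higher at 400 cGy and at least 1.13-fold higher at 800 cGy (adjusted p = 0.00673 and 0.00283), with most of these arrays not well above background. At 0 cGy this probe was at least 6.34-fold higher in B10.BR than in BALB.K (adjusted p = 2.67e-07), while the brighter probe was lower in B10.BR by 1.25 ± 0.14 (adjusted p = 8.72e-07). A direction for Col4a6 as a gene is therefore not given, and the counts above hold it by its brighter probe.

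**Figure D3:**
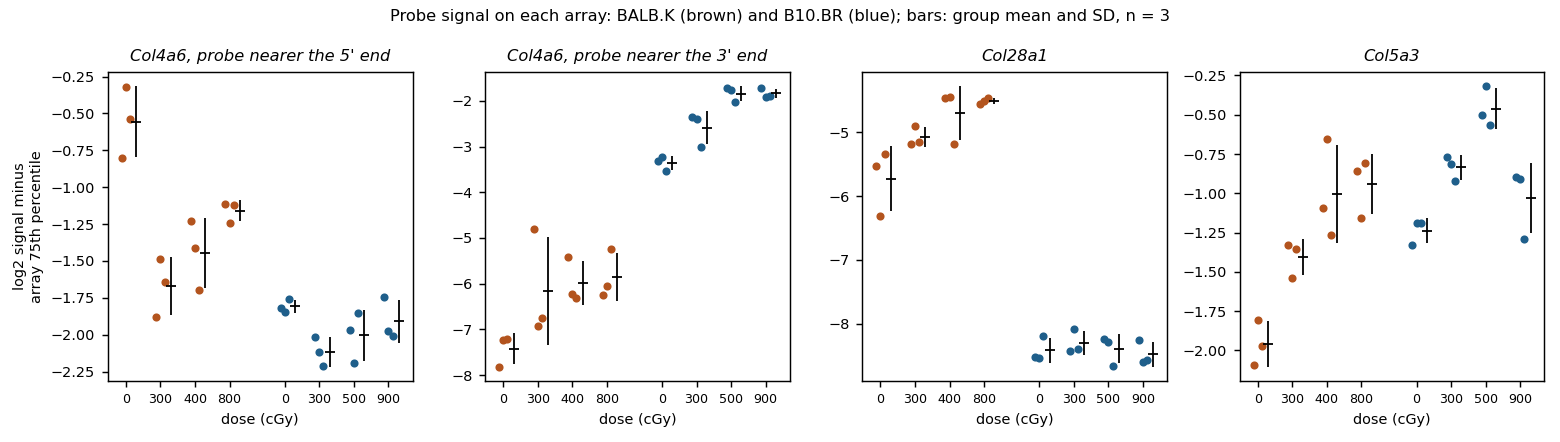
Levels (log2 of signal minus the array's 75th percentile, vertical axis) of the 2 tested Col4a6 probes, Col28a1 and Col5a3 on the 24 arrays, by dose in cGy (horizontal axis), with points for arrays (brown BALB.K, blue B10.BR) and bars for the mean and SD of 3. The Col4a6 probe nearer the 5′ end (transcript position 5102) is highest in BALB.K at 0 cGy, the one nearer the 3′ end (position 6544) is lowest there, and Col28a1 is at background on every B10.BR array.

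Col4a4, the remaining tested type IV chain, did not pass at any dose by its brighter probe, with differences from -0.02 to 0.41. Its other probe was above background on 0 of 3 BALB.K arrays at 0 cGy and was at least 1.47-fold, 1.71-fold and 1.76-fold higher at 300, 400 and 800 cGy (adjusted p = 0.00395, 0.00112 and 0.000709). That probe entered the tests only through BALB.K at 400 and 800 cGy, so that the filter favours these rises. Without replicate 2 of BALB.K at 0 cGy, the brighter probe was also called at 300, 400 and 800 cGy, at 0.66, 0.77 and 0.46.

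Type VIII chains form hexagonal lattices beneath endothelium. Col8a1 stood in BALB.K at -4.49, -4.41 and -4.33 at 0 cGy, -3.04, -3.48 and -3.06 at 300 cGy, -3.09, -3.44 and -3.46 at 400 cGy and -2.75, -2.57 and -2.64 at 800 cGy. Its values in B10.BR were -3.47, -3.44 and -3.31 at 0 cGy, -2.56, -2.97 and -3.41 at 300 cGy, -2.60, -2.12 and -2.68 at 500 cGy and -2.28, -2.31 and -2.48 at 900 cGy. It rose in BALB.K by 1.22, 1.08 and 1.76 (SE 0.18), and in B10.BR by 0.94 at 500 cGy and 1.05 at 900 cGy. In B10.BR at 300 cGy its arrays overlapped those at 0 cGy and the difference of 0.43 ± 0.18 did not pass (adjusted p = 0.0722), though without replicate 3 of that dose it was 0.64 and was called. Col8a2 rose by 0.83, 0.76 and 1.0 in BALB.K and 0.55, 0.86 and 0.98 in B10.BR (SE 0.19, largest adjusted p = 0.0238). The B10.BR 300 cGy rise of Col8a2 was lost without any of replicates 2 and 3 at 0 cGy or 1 and 2 at 300 cGy, at 0.48 to 0.56.

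The beaded-filament collagens of type VI, which link cells to the surrounding matrix, split into pairs, with 2 of the 4 tested genes higher and 2 lower in BALB.K at 800 cGy and 3 higher and 1 lower in B10.BR at 900 cGy. Col6a1 and Col6a2 encode the classical chains. Col6a1 (mm9 chr10:76171538-76171597, minus strand) stood in BALB.K at 1.33, 1.46 and 1.14 at 0 cGy, 2.72, 2.64 and 2.56 at 300 cGy, 2.70, 2.77 and 2.57 at 400 cGy and 3.31, 3.22 and 3.15 at 800 cGy. On the B10.BR arrays it gave 1.42, 1.29 and 1.11 at 0 cGy, 2.71, 2.46 and 2.40 at 300 cGy, 3.16, 3.15 and 2.88 at 500 cGy and 2.96, 3.04 and 2.97 at 900 cGy. It rose without overlap in every comparison, by 1.33, 1.37 and 1.92 in BALB.K and 1.25, 1.79 and 1.72 in B10.BR (SE 0.11, largest adjusted p = 9.89e-08).

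Col6a2 stood in BALB.K at -2.82, -2.35 and -2.73 at 0 cGy, -1.77, -2.83 and -1.72 at 300 cGy, -1.49, -1.85 and -2.22 at 400 cGy and -0.62, -0.70 and -0.69 at 800 cGy. Its B10.BR levels were -2.47, -2.44 and -2.67 at 0 cGy, -1.05, -1.40 and -1.5 at 300 cGy, -0.77, -0.81 and -1.10 at 500 cGy and -0.79, -0.95 and -0.94 at 900 cGy. Replicate 2 of BALB.K at 300 cGy lay with the 0 cGy arrays, and all other irradiated arrays lay above their 0 cGy group. Col6a2 rose by 1.96 ± 0.23 in BALB.K at 800 cGy (adjusted p = 8.45e-07) and by 1.21, 1.63 and 1.63 in B10.BR (SE 0.23). The difference of 0.52 ± 0.23 in BALB.K at 300 cGy did not pass (adjusted p = 0.0795) but was 0.89 and called without replicate 2 (adjusted p = 0.000909). That of 0.78 ± 0.23 at 400 cGy was called (adjusted p = 0.00997) but not without replicate 1 of that dose, at 0.60.

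Col6a4, one of the later-described type VI chains, went in opposite directions in the 2 strains. Its probe (mm9 chr9:105893016-105893075, minus strand) stood in BALB.K at 0.52, 0.36 and 0.21 at 0 cGy, -0.68, -0.15 and 0.07 at 300 cGy, -0.32, -0.51 and -0.58 at 400 cGy and -0.75, -0.60 and -0.76 at 800 cGy. In B10.BR it stood at -1.31, -1.30 and -1.37 at 0 cGy, -0.68, -0.44 and -0.48 at 300 cGy, -0.13, -0.27 and -0.06 at 500 cGy and -0.13, 0.09 and -0.40 at 900 cGy. Every irradiated array was below the 0 cGy arrays in BALB.K and above them in B10.BR. Col6a4 fell by 0.62 ± 0.15, 0.83 ± 0.15 and 1.07 ± 0.15 in BALB.K (adjusted p = 0.00325, 0.000189 and 9.15e-06) and rose by 0.79 ± 0.15, 1.18 ± 0.15 and 1.18 ± 0.15 in B10.BR (adjusted p = 0.000442, 4.53e-06 and 2.96e-06). The BALB.K 300 cGy fall was -0.33 and not called without the BALB.K replicate 1 arrays at 0, 300 and 400 cGy (adjusted p = 0.0718). A second Col6a4 probe was above background on 2 of 24 arrays and was not tested.

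Col6a6, another type VI chain, was dim, and its probe was above background on all 3 arrays of BALB.K at 0, 400 and 800 cGy and of B10.BR at 0 cGy, on 2 of 3 at 300 cGy in each strain, and on 1 and 0 of 3 in B10.BR at 500 and 900 cGy. In BALB.K it stood at -4.44, -3.19 and -3.47 at 0 cGy, -5.61, -5.45 and -6.80 at 300 cGy, -5.26, -4.94 and -5.02 at 400 cGy and -5.13, -5.70 and -5.38 at 800 cGy. The B10.BR arrays read -5.29, -4.96 and -5.51 at 0 cGy, -5.80, -6.83 and -5.70 at 300 cGy, -6.60, -5.79 and -6.85 at 500 cGy and -7.69, -6.93 and -8.14 at 900 cGy. It was lower on every irradiated array of both strains. Col6a6 fell by 2.26 ± 0.41, 1.37 ± 0.41 and 1.71 ± 0.41 in BALB.K (adjusted p = 0.000199, 0.00954 and 0.00157). In B10.BR it was at least 2.62-fold lower at 900 cGy (adjusted p = 8.65e-05), while its difference at 300 cGy (-0.86 ± 0.41) did not pass. Its B10.BR 500 cGy difference of -1.16 ± 0.41 was called (adjusted p = 0.0267) but lost without replicate 1 or 2 at 0 cGy or 1 or 3 at 500 cGy, at -0.94 to -1.18, and the BALB.K 400 cGy call was lost without replicate 2 at 0 cGy, at -1.12. With the slide as a block, the differences in BALB.K at 400 and 800 cGy (-0.85 and -1.19) and in B10.BR at 900 cGy (-1.68) were not called.

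Col7a1 encodes the anchoring fibril that ties basement membrane to the tissue below. It stood in BALB.K at 2.55, 2.43 and 2.35 at 0 cGy, 3.56, 3.15 and 3.23 at 300 cGy, 3.80, 3.89 and 3.66 at 400 cGy and 3.67, 3.55 and 3.96 at 800 cGy. B10.BR levels of this probe were 2.73, 2.80 and 2.84 at 0 cGy, 3.19, 3.46 and 3.21 at 300 cGy, 3.91, 3.99 and 3.68 at 500 cGy and 4.15, 4.13 and 4.02 at 900 cGy. All irradiated arrays were above their 0 cGy group, and the rises were 0.87, 1.34 and 1.28 in BALB.K and 0.5, 1.07 and 1.31 in B10.BR (SE 0.12, largest adjusted p = 0.00361). Col28a1, a chain found around Schwann cells, was above background on 11 BALB.K arrays and on 0 of 12 B10.BR arrays. In BALB.K it stood at -5.52, -6.31 and -5.35 at 0 cGy, -5.18, -4.90 and -5.16 at 300 cGy, -4.47, -4.45 and -5.18 at 400 cGy and -4.56, -4.51 and -4.47 at 800 cGy. Col28a1 rose by 1.03 ± 0.22 at 400 cGy and 1.21 ± 0.22 at 800 cGy (adjusted p = 0.000789 and 0.000125). The 300 cGy rise of 0.65 ± 0.22 (adjusted p = 0.0249) was lost without replicate 2 at 0 cGy or replicate 2 at 300 cGy, at 0.35 and 0.56. None of these 3 rises was called when the background was corrected with normexp instead (0.0, 0.22 and 0.09).

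Fibril-associated collagens coat fibrils and connect them to other molecules. Of the 8 tested, 6 rose and 0 fell in BALB.K at 800 cGy and in B10.BR at 900 cGy (limma). Col14a1, which binds type I fibrils through decorin and is abundant in soft connective tissue, stood in BALB.K at 4.54, 4.43 and 4.58 at 0 cGy, 5.64, 5.51 and 5.49 at 300 cGy, 5.5, 5.36 and 5.21 at 400 cGy and 5.93, 6.03 and 5.99 at 800 cGy. Its values in B10.BR were 4.34, 4.34 and 4.38 at 0 cGy, 5.28, 5.13 and 4.94 at 300 cGy, 5.46, 5.44 and 5.09 at 500 cGy and 5.58, 5.48 and 5.42 at 900 cGy. It rose without overlap at all doses, by 1.03, 0.84 and 1.47 in BALB.K and 0.76, 0.98 and 1.14 in B10.BR (SE 0.11, largest adjusted p = 1.72e-05). The second Col14a1 probe, the one printed above with 4 glycine codons in capitals, rose in the same comparisons by 1.15, 1.20, 2.41, 1.32, 1.47 and 1.91.

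Col16a1, which joins fibrils and fibrillin networks, rose by 1.09, 1.17 and 1.59 in BALB.K and by 1.09, 1.57 and 1.52 in B10.BR (SE 0.08, largest adjusted p = 2.09e-08). Its arrays did not overlap with 0 cGy in any of these comparisons. Of its 2 other probes, 1 rose at every dose, and the one printed above rose at every dose but 300 cGy in BALB.K, where its difference was 0.27 ± 0.26 (adjusted p = 0.437). The printed probe entered the tests only through irradiated groups, so that the filter favours its rises. Col12a1, a partner of type I fibrils in tendon and fascia, rose by 1.27, 1.07 and 1.13 in BALB.K and 0.60, 1.03 and 0.85 in B10.BR (SE 0.16). Its B10.BR 300 cGy call (adjusted p = 0.00683) was lost without replicate 1 of that dose, at 0.43.

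The other fibril-associated genes changed in fewer comparisons. Col9a2, a cartilage chain, rose by 0.55 ± 0.14 in BALB.K at 800 cGy and by 0.71 ± 0.14 and 0.74 ± 0.14 in B10.BR at 500 and 900 cGy (adjusted p = 0.00203, 0.000285 and 0.000154), and the other 3 differences, from -0.07 to 0.30, did not pass. Col20a1 rose by 0.49 and 0.47 in BALB.K at 400 and 800 cGy and by 0.51 and 0.76 in B10.BR at 500 and 900 cGy (SE 0.10). Col9a1 rose in BALB.K at 800 cGy, by 0.83 ± 0.30 (adjusted p = 0.0247), a call lost without replicate 2 at 0 or at 800 cGy (0.71 and 0.60). Col19a1 was at least 1.72-fold higher in B10.BR at 900 cGy (adjusted p = 0.0107), a call lost without replicate 2 at 0 cGy or at 900 cGy (0.67 and 0.93).

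Col22a1, a collagen of tissue junctions, rested on 1 array in BALB.K. It stood there at -6.64, -2.58 and -6.22 at 0 cGy, -6.35, -6.04 and -5.55 at 300 cGy, -5.80, -5.63 and -6.21 at 400 cGy and -5.21, -5.45 and -5.14 at 800 cGy, so that replicate 2 at 0 cGy was far above the other 11 BALB.K arrays. With that array its BALB.K differences were -0.83, -0.73 and -0.12 and did not pass. Without it the 400 cGy difference was 0.55 and the 800 cGy difference 1.17, and both were called (adjusted p = 0.0367 and 0.000117). On the B10.BR arrays it gave -4.02, -4.03 and -4.01 at 0 cGy, -2.68, -2.65 and -2.53 at 300 cGy, -2.63, -2.37 and -2.33 at 500 cGy and -2.98, -2.76 and -2.54 at 900 cGy. All irradiated B10.BR arrays were above the 0 cGy arrays. The rise of 1.58 ± 0.63 at 500 cGy was called (adjusted p = 0.0482) and was lost without any 1 of the 6 arrays concerned, at 1.52 to 1.67, while those of 1.40 and 1.26 at 300 and 900 cGy did not pass in the fit over all 24 arrays. With only the arrays compared they passed (adjusted p = 0.000811 and 0.000456).

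Transmembrane collagens sit in the plasma membrane and shed an outer part. Of the 4 tested, 3 rose at every dose in both strains. Col23a1 stood in BALB.K at -1.95, -1.97 and -2.06 at 0 cGy, -1.14, -0.98 and -0.99 at 300 cGy, -0.97, -0.87 and -0.87 at 400 cGy and -0.39, -0.32 and -0.48 at 800 cGy. In B10.BR it stood at -1.20, -1.25 and -1.26 at 0 cGy, -0.17, -0.30 and -0.36 at 300 cGy, 0.29, 0.01 and 0.01 at 500 cGy and 0.54, 0.43 and 0.44 at 900 cGy. Within each strain, it was higher on every irradiated array than on any 0 cGy array and higher at the highest dose than at 300 cGy. It rose by 0.95, 1.09 and 1.60 in BALB.K and by 0.96, 1.34 and 1.71 in B10.BR (SE 0.09, largest adjusted p = 1.17e-07). Col17a1, a hemidesmosome component of epithelia, rose by 0.74, 0.77 and 1.01 in BALB.K and 0.47, 0.68 and 0.85 in B10.BR (SE 0.15). Its B10.BR 300 cGy call (adjusted p = 0.0204) was lost without replicate 2 at 0 cGy or without replicate 2 or 3 at 300 cGy, at 0.36 to 0.46.

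Col13a1, a collagen of cell contacts including the neuromuscular junction, was above background on 0 of 3 arrays in BALB.K at 0 cGy, 2 of 3 at 300 cGy and all others. In BALB.K it stood at -6.35, -7.09 and -7.32 at 0 cGy, -4.42, -6.95 and -5.26 at 300 cGy, -3.84, -4.38 and -5.41 at 400 cGy and -4.24, -4.12 and -4.09 at 800 cGy. The B10.BR arrays read -5.91, -5.38 and -5.39 at 0 cGy, -4.11, -3.95 and -3.57 at 300 cGy, -3.86, -3.56 and -3.75 at 500 cGy and -3.45, -3.35 and -3.52 at 900 cGy. It was at least 2.74-fold higher in BALB.K at 400 cGy and at least 3.59-fold higher at 800 cGy (adjusted p = 0.000254 and 3.83e-05), and it rose in B10.BR by 1.69 ± 0.45, 1.84 ± 0.45 and 2.12 ± 0.45 (adjusted p = 0.00622, 0.00254 and 0.000629). The 300 cGy call in BALB.K (at least 1.37-fold, adjusted p = 0.0201) was lost without replicate 2 or 3 at 0 cGy or replicate 1 or 3 at 300 cGy, at 0.81 to 1.29 on the log2 scale.

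Col25a1, a collagen first found in amyloid plaques of brain, stood in B10.BR at -5.32, -4.77 and -5.04 at 0 cGy, -5.19, -5.38 and -5.68 at 300 cGy, -5.45, -5.67 and -5.63 at 500 cGy and -5.88, -5.81 and -6.29 at 900 cGy by the probe printed above. Its 900 cGy arrays were the lowest, 2 of 3 were above background, and it fell by 0.95 ± 0.23 at that dose (adjusted p = 0.00212; -0.87 and not called with the slide as a block). In the other 5 comparisons with 0 cGy its differences, -0.55 to -0.02, did not pass, and the 300 cGy one in BALB.K was called at -0.86 without replicate 1 at 0 cGy and at -0.77 without replicate 1 at 300 cGy. Its other tested probe was above background on 0 of 3 B10.BR arrays at 300 cGy and at least 1.71-fold lower there (adjusted p = 0.0052).

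The multiplexins, types XV and XVIII, are proteoglycans of basement membranes, and type XVIII carries endostatin at its end. Col18a1 (mm9 chr10:76514926-76514985, minus strand) stood in BALB.K at 1.47, 1.49 and 1.23 at 0 cGy, 2.67, 2.29 and 2.20 at 300 cGy, 2.52, 2.35 and 2.01 at 400 cGy and 2.92, 2.90 and 2.85 at 800 cGy. B10.BR levels of this probe were 2.06, 1.91 and 1.70 at 0 cGy, 3.31, 3.09 and 3.05 at 300 cGy, 3.52, 3.51 and 3.36 at 500 cGy and 3.48, 3.60 and 3.53 at 900 cGy. The irradiated arrays lay above the 0 cGy arrays, with rises of 0.99, 0.90 and 1.49 in BALB.K and 1.27, 1.58 and 1.65 in B10.BR (SE 0.14, largest adjusted p = 2.48e-05). Col15a1 also had probes at transcript positions 4542 and 4554, which were above background on 0 of 24 arrays and were not tested. By the probe printed above, Col15a1 was dim but above background on all 24 arrays. In BALB.K it stood at -5.48, -5.20 and -5.59 at 0 cGy, -5.66, -5.10 and -5.45 at 300 cGy, -4.88, -5.29 and -4.84 at 400 cGy and -4.81, -4.85 and -5.06 at 800 cGy. Its values in B10.BR were -6.25, -5.73 and -5.80 at 0 cGy, -4.57, -4.87 and -5.34 at 300 cGy, -5.12, -4.70 and -5.32 at 500 cGy and -4.75, -4.61 and -5.41 at 900 cGy. Its BALB.K arrays at 300 cGy overlapped those at 0 cGy, whereas its irradiated B10.BR arrays did not. It rose by 1.0, 0.88 and 1.0 in B10.BR (SE 0.23; adjusted p = 0.0022, 0.00449 and 0.00136), and the BALB.K differences of 0.02, 0.42 and 0.52 did not pass. The B10.BR rises were 0.16, 0.09 and 0.18 and not called with normexp.

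Promoter windows from RefSeq, 250 bases before to 50 after each start, were found for 33 of the 41 genes and 30 of the 36 tested ones. The tested genes had 33 windows in all, since some have more than 1 in the table. The motif GGGCGG, searched on both strands, was in 21 of these 33 windows (63.6%) and in 11678 of all 32544 windows (35.9%). CCAAT was in 12 (36.4%, all windows 37.4%) and TATAAA in 4 (12.1%, all windows 13.6%). A match is a description of the window.

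Within a strain, the highest dose was compared with 300 cGy. In BALB.K, 18 of the 36 collagen genes were higher at 800 than at 300 cGy and 1 was lower, beside 20.6% of all probes higher and 14.1% lower (34.6% called). In B10.BR, 13 were higher at 900 than at 300 cGy and 1 was lower, beside 10.3% and 9.22% of all probes (19.5% called). The 3 largest rises in BALB.K were those of Col2a1 (1.80 ± 0.67), Col6a2 (1.44 ± 0.23) and Col13a1 (1.39 ± 0.45), and that of Col4a2 was 1.30 ± 0.18 (adjusted p = 0.0452, 0.000199, 0.0247 and 4.21e-05). The Col2a1 call was lost without replicate 2 or 3 at 300 cGy or 1 or 3 at 800 cGy (1.30 to 1.80), and the Col13a1 call without replicate 2 at 300 cGy or 2 or 3 at 800 cGy (0.69 to 1.38). Col6a4 was lower at 800 than at 300 cGy (-0.45 ± 0.15, adjusted p = 0.0319), a call lost without replicate 2 or 3 at 300 cGy or 1 or 3 at 800 cGy (-0.29 to -0.43). In B10.BR, Col27a1 (0.98 ± 0.11), Col7a1 (0.81 ± 0.12) and Col23a1 (0.74 ± 0.09) had the largest rises (adjusted p = 5.11e-06, 0.000178 and 1.12e-05), and Col6a6 was at least 1.45-fold lower at 900 than at 300 cGy (adjusted p = 0.0158), a call lost without replicate 1 or 3 of either dose. For the type I chains, Col1a1 differed by 0.39 ± 0.14 in BALB.K (adjusted p = 0.0406, lost without any 1 of 5 of the 6 arrays) and 0.28 ± 0.14 in B10.BR (adjusted p = 0.199), and Col1a2 by 0.27 ± 0.11 and 0.27 ± 0.11 (adjusted p = 0.0721 and 0.105). The BALB.K count depended on the scaling: 6 genes were called (5 higher) when arrays were scaled on their median, which moved the median of all probes from 0.15 to -0.11, and 29 (29 higher) when they were scaled on the spike-in probes, which moved it to 0.59. It was also 12 without replicate 2 at 300 cGy and 12 without replicate 3 at 800 cGy. On slide 3 alone, which holds 2 arrays at 300 cGy and 3 at 800 cGy, 17 were higher and 1 lower. In B10.BR the spike-in scaling left 4 higher and 1 lower.

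Without irradiation, B10.BR and BALB.K differed in 19 of the 36 collagen genes, 10 higher and 9 lower in B10.BR, beside 21.6% of all probes higher and 29.3% lower (51% called). The 0 cGy arrays of B10.BR all lay on slide 1 and those of BALB.K all on slide 2, so that strain and slide coincide here. The slide block separates them only through the B10.BR 500 cGy group, which was split between these slides. With that block 2 genes were higher and 7 lower. Y-linked signal was also unequal, on every B10.BR array at 0 cGy but in BALB.K on replicate 1 alone. The split also moved with the scaling, to 14 higher and 7 lower with median scaling (all-probe median 0.21 against -0.11), to 8 higher and 11 lower with quantile normalization and to 1 higher and 20 lower on the spike-in probes (all-probe median -0.79). Col6a4 was lower in B10.BR by 1.69 ± 0.15 (adjusted p = 8.25e-08), and the 3 arrays of each strain were far apart. Col28a1, at -8.52, -8.53 and -8.19 in B10.BR, was at least 1.60-fold lower there, and Col6a6 was lower by 1.56 ± 0.41 (adjusted p = 2.23e-08 and 0.00421). Col4a5 was higher in B10.BR by 1.16 ± 0.15, Col8a1 by 1.01 ± 0.18 and Col23a1 by 0.76 ± 0.09 (adjusted p = 4.99e-06, 0.000186 and 1.36e-06). On the spike-in probes Col8a1 (0.32) and Col23a1 (0.07) were not called, and with the slide as a block Col8a1 (0.68) was not. Col3a1 (0.53 ± 0.13), Col18a1 (0.49 ± 0.14) and Col1a1 (0.45 ± 0.14) were higher in B10.BR with the 75th percentile scaling, but their sign turned on the spike-in probes (-0.16, -0.20 and -0.24). Col13a1 was at least 1.35-fold higher in B10.BR (adjusted p = 0.0186), a call lost without replicate 2 or 3 of either group (1.16 to 1.27 on the log2 scale). The Col1a1 call (adjusted p = 0.0148) was lost without replicate 1 or 3 of BALB.K or replicate 1 of B10.BR (0.35 to 0.39).

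The lists of collagen genes that rose were compared between the strains, whose comparisons use separate control arrays. At 300 cGy, 21 rose in BALB.K and 22 in B10.BR, and 19 rose in both, which is 90.5% of the first list and 86.4% of the second. At the highest doses, which differ (800 and 900 cGy), 26 rose in each strain and 22 in both (84.6% of each list). Of all probes that rose at 300 cGy, 5355 rose in both strains, which is 66.4% of the BALB.K list and 74.1% of the B10.BR list, and at the highest doses 8038 did (66.4% and 77.8%). Probes of 1 gene are counted singly there, and whether the collagen shares differ from these was not tested. Genes called higher in 1 list and not in the other are not thereby shown to differ, and the difference between the strains' changes was tested itself.

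**Figure D4:**
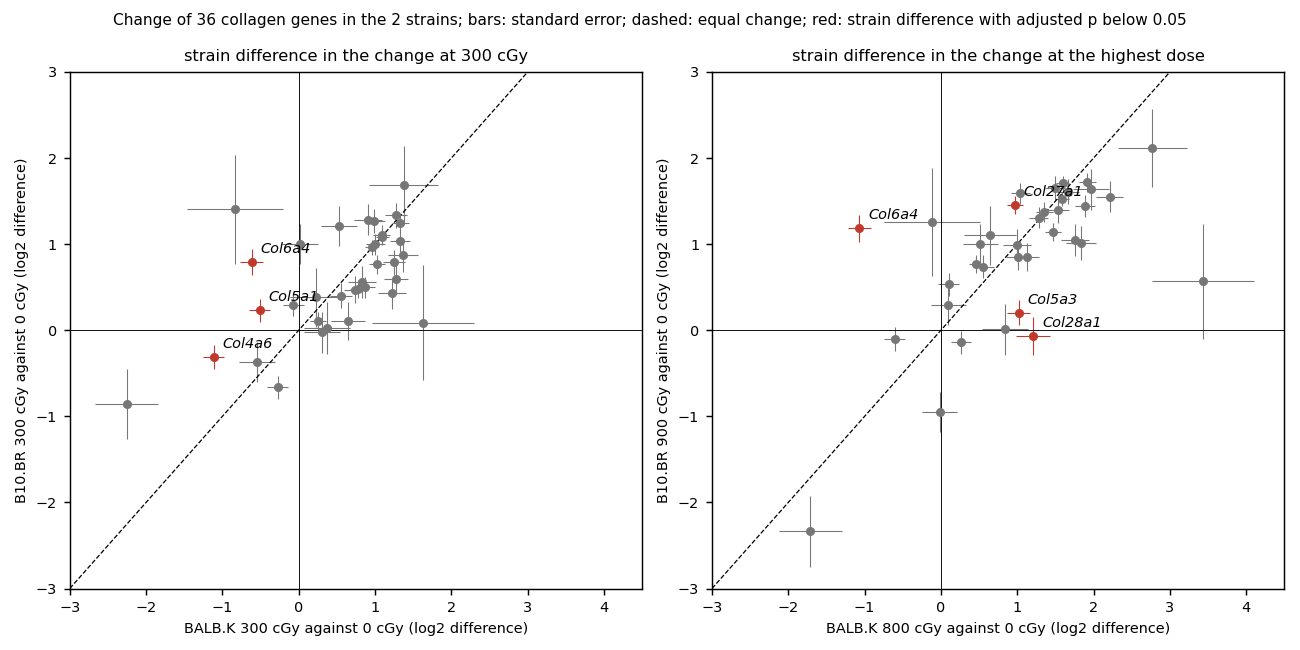
Change from 0 cGy in B10.BR (vertical axis, log2) against the change in BALB.K (horizontal axis, log2) for the 36 collagen genes tested, at 300 cGy in each strain and at 800 cGy in BALB.K against 900 cGy in B10.BR. Each point is a gene with standard error bars, the dashed line marks equal change, and red points are genes whose strain difference had an adjusted p under 0.05. Most genes lie at the upper right, while Col6a4 (red) and Col22a1 (not red) lie at the upper left in both panels.

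In that test, 3 genes passed at 300 cGy and 4 at the highest doses, beside 9.65% of all probes at 300 cGy (5.08% with the higher change in B10.BR and 4.57% with the lower) and 10.9% at the highest doses (5.53% and 5.41%). Col6a4 passed at both, with the change in B10.BR above that in BALB.K by 1.41 ± 0.22 at 300 cGy (adjusted p = 0.000608) and by 2.25 ± 0.22 at the highest doses (adjusted p = 5.19e-06). It was called in opposite directions in the strains at every dose. With the slide as a block the difference at the highest doses was 2.75 (adjusted p = 0.000758). The change of Col4a6 at 300 cGy was higher in B10.BR by 0.81 ± 0.19 by its brighter probe (adjusted p = 0.0138). That of Col5a1 was higher by 0.75 ± 0.19 (adjusted p = 0.0186), a call lost without replicate 2 of BALB.K or replicate 3 of B10.BR at 0 cGy (0.63 and 0.64). At the highest doses the change of Col5a3 was lower in B10.BR, where it did not pass, by -0.81 ± 0.21 (adjusted p = 0.0159). The fitted difference of -1.28 ± 0.31 for Col28a1 (adjusted p = 0.0133) is not a measured difference in response, since the gene was at background on all 12 B10.BR arrays. Col27a1 rose more in B10.BR by 0.48 ± 0.15 (adjusted p = 0.0448), a call lost without any 1 of 10 of the 12 arrays (0.38 to 0.52). Without replicate 1 of BALB.K at 0 cGy, 8 genes passed at 300 cGy, and without replicate 1 of B10.BR at 300 cGy, 5 did. For the fibrillar pair Col1a1 and Col1a2, the difference between the strains' changes at the highest doses was -0.06 ± 0.20 and 0.02 ± 0.16, and neither passed.

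Genes that act on collagen were counted from lists chosen with earlier results of these data known. Beside the counts of this and later lists, 19.1%, 24.1% and 28.6% of all probes rose in BALB.K in order of dose. In B10.BR 17.1%, 20.6% and 24.4% did. Of 29 tested genes of collagen modification, secretion and cross-linking, 24, 22 and 23 rose in BALB.K at 300, 400 and 800 cGy, and 21, 24 and 23 in B10.BR at 300, 500 and 900 cGy, while 1 fell in 4 of these 6 comparisons and 0 in BALB.K at 400 and 800 cGy (limma). The median differences were 0.87, 0.87 and 1.43 in BALB.K and 0.73, 1.08 and 1.08 in B10.BR. Plod1, a lysyl hydroxylase, rose by 2.62 ± 0.24 in BALB.K at 800 cGy and 1.98 ± 0.24 in B10.BR at 900 cGy (adjusted p = 2.64e-08 and 1.08e-06). Loxl2, which cross-links collagen, rose by 2.29 ± 0.22 in BALB.K at 800 cGy (adjusted p = 6.92e-08). Of 11 collagen receptors, 8, 9 and 9 rose in BALB.K and 9, 8 and 9 in B10.BR, where 1 fell at 300 cGy. Mrc2, which takes up collagen fragments, rose by 2.43 ± 0.16 and 2.01 ± 0.16 at the highest doses (adjusted p = 5.26e-10 and 7.56e-09), and Itga11, a collagen-binding integrin chain, by 1.73 ± 0.16 and 1.36 ± 0.16 (adjusted p = 4.46e-08 and 1.11e-06).

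Of 20 matrix genes that assemble with collagen, 19, 20 and 20 rose in BALB.K and 16, 18 and 18 in B10.BR, with medians of 1.18, 1.19 and 1.59 and of 0.80, 1.21 and 1.42. Lum, a proteoglycan that binds fibrils, rose by 2.46 ± 0.21 in B10.BR at 900 cGy (adjusted p = 1.07e-08), and Lamb2, a laminin chain, by 1.98 ± 0.20 (adjusted p = 1.22e-07). Of 8 growth factors that induce collagen, 6, 7 and 7 rose in BALB.K and 5 at each dose in B10.BR, where 1 fell at each dose. Pdgfc rose by 2.06 ± 0.13 and 2.44 ± 0.13 at the highest doses (adjusted p = 1.35e-10 and 2.23e-11). Cyr61, the matricellular gene that fell, differed by -2.01 ± 0.60 in B10.BR at 900 cGy (adjusted p = 0.0093), a call lost without replicate 3 at 0 cGy (-1.19).

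Markers of the cells a spleen sample can hold were counted as well, and their part in the collagen differences was not tested unless stated. Of 10 fibroblast and reticular stroma markers, 9, 8 and 9 rose in BALB.K and 9 at each dose in B10.BR, and 1 fell in each, Thy1 in B10.BR at 900 cGy by 2.03 ± 0.12 (adjusted p = 9.67e-11). Thy1 is also expressed by T cells. Tcf21, a stromal transcription factor, rose by 2.49 ± 0.22 and 1.93 ± 0.22 at the highest doses (adjusted p = 1.74e-08 and 5.28e-07), and Pdpn, a surface marker of reticular cells, by 2.25 ± 0.28 and 1.88 ± 0.28 (adjusted p = 1.82e-06 and 1.73e-05). The summed signal of this list was 0.0367% to 0.0397% of the total in BALB.K at 0 cGy and 0.0931% to 0.101% at 800 cGy, and 0.0397% to 0.0434% in B10.BR at 0 cGy and 0.0994% to 0.107% at 900 cGy. Of 10 endothelial markers, 9 or 10 rose in every comparison with 0 cGy, and of 8 smooth muscle and pericyte markers 5 to 7 did. Of 4 leukocyte markers, 3 or 4 fell in every comparison and 0 rose (limma), and their share of the signal went from 0.0185% to 0.0229% in BALB.K at 0 cGy down to 0.00782% to 0.00852% at 800 cGy, and from 0.0196% to 0.0216% in B10.BR at 0 cGy down to 0.007% to 0.00856% at 900 cGy. Of all probes, 21.3% to 27.1% fell in the comparisons with 0 cGy.

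The same counts were made for mesothelium, fat, exocrine pancreas and cartilage, beside 17.1% to 28.6% of all probes higher in the comparisons with 0 cGy. Of 7 mesothelial markers, 5 to 7 rose in each comparison with 0 cGy, and their share rose from 0.00295% to 0.00371% in BALB.K at 0 cGy to 0.0115% to 0.0168% at 800 cGy, and from 0.00298% to 0.00388% in B10.BR at 0 cGy to 0.0105% to 0.0165% at 900 cGy. Of 8 adipocyte markers, 5, 7 and 8 rose in BALB.K and 2, 7 and 7 in B10.BR, with shares of 0.00866% to 0.0101% and 0.0075% to 0.00964% at 0 cGy and of 0.0234% to 0.0526% and 0.0302% to 0.1% at the highest doses. With the mean adipocyte level as a covariate, 24 collagen genes rose and 2 fell in BALB.K at 800 cGy, and 25 rose and 2 fell in B10.BR at 900 cGy. Of 19 exocrine pancreas markers, all rose in B10.BR at 300 and 900 cGy, 1 in BALB.K at 800 cGy and 0 in the other 3 comparisons, and their share ranged from 0.000781% on 1 B10.BR array at 0 cGy to 0.97% on 1 BALB.K array at 300 cGy. With the exocrine level as a covariate, 15 collagen genes rose and 1 fell in B10.BR at 300 cGy. In that fit 21 rose and 2 fell in B10.BR at 900 cGy, and 25 rose and 3 fell in BALB.K at 800 cGy. The shares of all probes given above were not taken from the adipocyte or exocrine fits. Of 6 cartilage markers, 3, 5 and 6 rose in BALB.K and 2, 3 and 4 in B10.BR, and Matn1, a cartilage matrix gene, rose by 6.14 ± 0.17 and 5.37 ± 0.17 at the highest doses (adjusted p = 1.4e-14 and 8.46e-14).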

How the data were processed

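Per the file headers, the deposited scanner files hold intensity in arbitrary units, with coordinates on mm9, and the processed signal is already background-subtracted. Per the submitters' processing notes, Agilent Feature Extraction 10.5.1.1 made them. The deposited matrix holds the authors' log2 values, with column medians of -0.118 to 0.176. Set against the scanner values its scale is log2 with a slope of 1, its BALB.K columns are centred per probe, and the baseline of its B10.BR columns stays unknown, so that it was used within a strain only.

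Spots marked as outliers (72 to 218 per array) and control spots were left out, log2 of the processed signal was taken, and each array's 75th percentile was subtracted. A probe was kept if well above background on all 3 arrays of at least 1 group (42319 of 55681). A gene was followed by its kept probe with the highest mean. In R 4.3.3, limma 3.58.1 fitted all 24 arrays together with 1 mean for each of the 8 groups and moderated variances. The 11 comparisons were two-sided, with Benjamini-Hochberg adjusted p-values over all kept probes and a threshold of 0.05. Errors are standard errors. P-values measure the spread between pools of mice, and the number of arrays limits precision. A bound ("at least") sets each dim array at the higher of its own signal and the lowest signal well above background on that array. The script was tested on simulated data first. For BALB.K 800 against 0 cGy, 57 of 100 probes set 1 log2 unit higher were called higher, and 95 of 100 set 2 higher. Of the calls, 6.17% were probes left unchanged. Far more probes were called in the data than were changed there, so that recovery in the data was not measured.

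Every tested collagen gene is described by structural class. Values on every array are given for the main chains of types I, III, IV, V, VI, XIV, XV and XVIII. Array values are also given for up to 3 called genes with the largest rise and up to 3 with the largest fall in a comparison. Of these, Col2a1 has array values in BALB.K alone, and Col11a2, Col25a1 and Col27a1 in B10.BR alone. Col28a1 has them in BALB.K and in B10.BR at 0 cGy. Other collagen genes with array values, and the second probes, were singled out after their values were seen. A gene of a context list is named only if it ranked among the 3 largest called changes of its list in that comparison. The lists are biosynthesis and cross-linking, receptors, matrix, growth factors, fibroblast and reticular stroma, smooth muscle and pericyte, endothelial, mesothelial, adipocyte, cartilage, exocrine pancreas, leukocyte and Y-linked genes. The members and lists were chosen with earlier results of these data known. Alternatives to scaling, background correction, filters, probe choice, moderation, slide, replicate number, covariates and each array are in the closing section. Replicate numbers are shared between groups. No comparison had every correlation of same-numbered arrays above 0.1, so that they were not treated as pairs. This does not exclude a shared deviation. The correlations for B10.BR 900 against 300 cGy were 0.188, 0.047 and 0.29. In BALB.K at 0, 300 and 400 cGy, replicate 1 alone carried Y-linked signal.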

Additional observations from a re-analysis of the deposited data

Results flagged for a closer look

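The strains' changes after irradiation differed, by a test of the difference itself, for 8 of 96 collagen probe and dose pairs (8.33%), beside 9.65% of all probes at 300 cGy and 10.9% at the highest doses. Values are given as B10.BR minus BALB.K on the log2 scale. At 300 cGy these were Col6a4 (1.41), Col4a6 by its brighter probe (0.81), Col5a1 (0.75) and the dimmer tested probe of Col25a1 (-1.24 ± 0.32, adjusted p = 0.0209). At 800 cGy in BALB.K against 900 cGy in B10.BR these were Col6a4 (2.25), Col27a1 (0.48), Col5a3 (-0.81) and Col28a1 (-1.28). The Col25a1 probe was above background on 0 of 3 B10.BR arrays at 300 cGy and Col28a1 on 0 of 12 B10.BR arrays, so that these 2 values rest on signal at background and are not measured differences in response.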

How the results depend on the processing

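Of 273 recomputed counts of collagen genes called, 255 were within 1.5 times the reported count, and of 10454 recomputed values of single genes 9882 kept their direction and side of the threshold or passed in neither setting, 357 lost their call, 197 gained one and 18 turned. For BALB.K 800 against 300 cGy, the count of 19 became 6 with median scaling, 29 on spike-in probes and 10 with the adipocyte covariate (chosen after seeing the data). For B10.BR 900 against 300 cGy, 14 became 5 on spike-in probes, 6 with only the arrays compared and 9 with the slide as a block. For the strain difference in the change at 300 cGy, 3 became 5 with median scaling, 1 with only the arrays compared, 5 with the exocrine covariate and 7 without the BALB.K replicate 1 arrays at 0, 300 and 400 cGy (chosen after seeing the data). At the highest doses, 4 became 1 on spike-in probes, 7 with normexp and 1 with the slide as a block. For the strains at 0 cGy, 19 became 9 with the slide as a block. With 1 array left out, counts ranged from 24 to 28 (BALB.K 300 cGy), 26 to 28 (400 cGy), 28 to 30 (800 cGy), 20 to 23 (B10.BR 300 cGy), 27 to 29 (500 cGy), 27 to 28 (900 cGy), 12 to 22 (BALB.K 800 against 300 cGy), 10 to 14 (B10.BR 900 against 300 cGy), 16 to 19 (strains at 0 cGy), 2 to 8 (difference at 300 cGy) and 3 to 6 (at the highest doses). The replicate block gave 25, 28 and 29 in BALB.K and 23, 29 and 28 in B10.BR against 0 cGy, 20 and 17 between doses, 20 for the strains at 0 cGy, and 4 and 3 for the strain differences. For B10.BR against BALB.K at 0 cGy, the sign turned on spike-in probes for Col1a1 (-0.24), Col3a1 (-0.16), Col7a1 (-0.34), Col8a2 (-0.0826), Col12a1 (-0.59), Col18a1 (-0.20) and Col27a1 (-0.59), with median scaling for Col16a1 (0.075) and with the slide as a block for Col8a2 (-0.19). The mean of a gene's probes turned Col4a6 to 0.0709, 0.27 and 0.48 in BALB.K against 0 cGy, 0.66 and 0.71 in B10.BR at 500 and 900 cGy and 1.40 between the strains at 0 cGy, where Col4a4 became 0.58; averaging joins the 2 probes that differ. Col22a1 in BALB.K ranged from -1.48 to 0.55 at 400 cGy and from -0.86 to 1.17 at 800 cGy with 1 array left out, and its sign turned without replicate 2 at 0 cGy. The cause of the other changes was not tested. Limits: 5 collagen genes were too dim to test, 7 tested ones were at background on some arrays, Y-linked signal differed between BALB.K arrays, and the doses above 300 cGy differ between the strains.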
